A study of Mus musculus with 6 samples.

Results

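The miR-28 and miR-708 family was followed in kidneys of lupus-prone and control mice through the 4 mature sequences of its hairpins Mir28a and Mir708: mmu-miR-28a-5p, mmu-miR-28a-3p, mmu-miR-708-5p and mmu-miR-708-3p (mmu stands for mouse and is left out below where a name recurs). They were taken by name from a count table of 1542 mature miRNAs, and all 4 were present. The 6 small RNA libraries were made from kidney tissue of female mice at 17 weeks of age. The 3 control libraries came from C57BL/6 mice. The other 3 came from MRL/lpr mice (MRL/MpJ-Fas<lpr>/J), whose Fas gene carries the lpr mutation and which spontaneously develop nephritis as part of a lupus-like disease. No treatment is given for either group, and background, mutation and disease differ together between the strains and cannot be told apart. Whether every library came from its own animal is not stated in the labels, so the spread between libraries may be technical.

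MicroRNAs are short RNAs that guide Argonaute proteins to messenger RNAs, mainly through the seed, bases 2 to 8 counted from the 5′ end. Each hairpin can give a mature sequence from its 5′ arm (5p) and one from its 3′ arm (3p), and 1 arm usually dominates. miR-28 is known in lymphocytes as a brake on B cell receptor signalling, and miR-708 is known, in mouse, as a miRNA induced together with its host gene by the stress-response factor CHOP. Both hairpins lie inside long protein-coding genes: Lpp encodes a focal adhesion protein, and Tenm4 encodes a teneurin, a transmembrane protein of cell adhesion.

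The mature sequences, from RefSeq on GRCm38.p6, are shown 5′ to 3′ with the seed in capitals. The family is grouped by the seed that its 5p arms share. The first pair are the 5p arms, the second pair the 3p arms.
miR-28a-5p: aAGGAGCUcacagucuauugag
miR-708-5p: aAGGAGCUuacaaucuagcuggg
miR-28a-3p: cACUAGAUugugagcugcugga
miR-708-3p: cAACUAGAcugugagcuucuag
Both 5p arms share the seed AGGAGCU, and no other of the 1679 mature mouse miRNAs in the RefSeq table carries it. From base 1 they were identical over 8 bases, and 16 of 22 aligned bases matched. With positions counted from 1 at the 5′ end of miR-28a-5p, the first differences to miR-708-5p are C9U and G13A, and the other 4 (U18G, U19C, G20U and A21G) lie at positions 18 to 21. The 3p arms do not share a seed. They are offset by 1 base: with miR-708-3p shifted by 1, 17 of 21 aligned bases matched, against 2 of 22 without the shift. Each 3p seed was found in 1 RefSeq mature sequence, its own. All 4 members were matched to RefSeq, and of the 4 relatives miR-28b, miR-28c, miR-151-5p and miR-151-3p only miR-28b was.
miR-28b: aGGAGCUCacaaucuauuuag
This relative begins 1 base later than miR-28a-5p, so its seed is GGAGCUC, and 19 of 21 aligned bases match miR-28a-5p (differences G13A and G20U, same counting). No miR-28b entry was analysed here.

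Mir28a lies on chromosome 16 (GRCm38, GENCODE M21, 24827855 to 24827940, plus strand) in an intron of Lpp, on the same strand, 434348 bases from the start of the host gene. The nearest annotated Lpp exons are 62730 bases upstream and 17151 bases downstream, and Lpp holds no other annotated miRNA hairpin. Mir708 lies on chromosome 7 (96249424 to 96249532, plus strand) in an intron of Tenm4, also on the same strand, 78178 bases from the host's start. Its nearest Tenm4 exons are 37434 bases upstream and 105824 bases downstream. Tenm4 holds 1 further annotated hairpin, Mir6394, which was not analysed here. The arms are separated by 18 bases in Mir28a and by 23 bases in Mir708. Messenger RNA was not measured, so the host genes themselves have no values.

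Libraries held 5259528 to 6773829 counts, and 451 of the 1542 entries passed the filter on low counts (edgeR's filterByExpr with a minimum count of 10). Of the 4 members, 3 passed, and miR-708-3p did not. Values below are CPM (counts divided by the library's scaled total, where TMM sets the scale between libraries). The kidney epithelium markers fixed for the sample check were all present in every library (10 of 10, summed level 105539 to 150038 CPM over C57BL/6 libraries, 135599 to 151161 CPM over MRL/lpr libraries). The leukocyte markers were also all present (6 of 6), at 5818 to 27897 CPM over C57BL/6 libraries and 9019 to 10752 CPM over MRL/lpr libraries, sums made up mostly of miR-146a-5p. The highest of these sums was C57BL/6 replicate 2, which held the highest C57BL/6 value for 6 of 6 leukocyte and 3 of 3 myeloid markers. It did so for 3 of 4 smooth muscle and mesenchyme, 1 of 10 kidney epithelium, 0 of 2 endothelium and 0 of 2 erythrocyte markers. It also had the lowest epithelial sum and the lowest erythrocyte sum (594 CPM, against up to 3493 CPM in the other C57BL/6 libraries). Fewer cells of a type and less RNA per cell cannot be told apart in such bulk samples.

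In these kidneys miR-28a was the more abundant hairpin and differed little between the strains, while miR-708 was the less abundant and was higher in MRL/lpr. The family was selected on its names and seed with the strain difference of miR-708-5p in these 6 libraries already known, so the strain values of the 4 members are a description, with no test. Of the 3 members that passed the filter, 1 was past the threshold of 0.05 on the adjusted p of edgeR's quasi-likelihood test (miR-708-5p, higher), where 6.21% of all 451 tested miRNAs were past it in either direction and 4.21% as higher. The median log2 fold change, MRL/lpr over C57BL/6, was -0.075 over the 3 members and -0.027 over all 451.

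mmu-miR-708-5p, the dominant arm of Mir708, stood at 34.6, 25.7 and 36.5 CPM in C57BL/6 replicates 1, 2 and 3, and at 71.9, 65.02 and 75.3 CPM in the MRL/lpr replicates. Every MRL/lpr library was higher than every C57BL/6 library, and the gap between the groups, from 36.5 to 65.02 CPM, was wider than the range within either. The groups also did not overlap for 28.8% of all tested miRNAs, and for 14% with MRL/lpr higher. The raw reads behind these values numbered 169, 160 and 234 for C57BL/6, against 509, 335 and 455 for MRL/lpr, so the exact 95% Poisson intervals of the CPM, which cover counting error only, ran from 21.9 to 41.4 across C57BL/6 and from 58.2 to 82.6 across MRL/lpr. The means were 32.2 ± 5.74 and 70.7 ± 5.24 CPM (SD, n = 3), a fitted 2.19-fold difference (log2 fold change 1.13 ± 0.23 SE). By the size of its log2 fold change 47 of the 451 tested miRNAs were further from 0.

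C57BL/6 replicate 2, the library with high leukocyte and myeloid markers, held the lowest miR-708-5p value, at 0.724 times the mean of the other C57BL/6 libraries. Without it the log2 fold change of miR-708-5p was 1.01, the smallest value among the 16 alternatives. Between the strains, marker levels did not all go the same way. Of 6 leukocyte markers, 5 had log2 fold changes above 0 (median 0.72), beside 219 of all 451 tested miRNAs. Their summed level overlapped between the strains. Higher in MRL/lpr without overlap were 2 of the 6, beside 14% of all tested miRNAs. These were miR-142a-3p (49.6 ± 34.2 and 136 ± 21.6 CPM in C57BL/6 and MRL/lpr kidneys, SD, n = 3) and miR-155-5p. Of the 6, only miR-155-5p was past the threshold, beside 4.21% of all tested miRNAs as higher. The erythrocyte markers had a median of 1.10 over 2 members and the myeloid markers -0.70 over 3. The kidney epithelium markers had a median of 0.11 over 10. Past the threshold as higher were 2 of these 10, miR-204-5p and miR-802-5p, beside 4.21% of all tested miRNAs. The part of these cell types in the difference of miR-708-5p was not tested. The value kept its sign under all 16 alternatives, from 1.01 to 1.30, but was not past the threshold under 5 of them: with the replicate number as a block (1.15) and without C57BL/6 replicate 1 (1.14), C57BL/6 replicate 3 (1.19), MRL/lpr replicate 1 (1.15) or MRL/lpr replicate 3 (1.11).

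mmu-miR-708-3p, the minor arm of Mir708, was near the limit of detection. The C57BL/6 libraries held 2, 1 and 1 counts of it and the MRL/lpr libraries 10, 7 and 5, or 0.409, 0.161 and 0.156 CPM against 1.41, 1.36 and 0.828 CPM. All 3 MRL/lpr libraries were higher than all 3 C57BL/6 libraries. The same held for 14% of tested miRNAs, a set that leaves out miR-708-3p. The share among entries with such low counts was not computed. The counting intervals of single libraries, however, overlapped between the groups (0.00394 to 1.48 CPM and 0.269 to 2.80 CPM). Summed over libraries, 4 C57BL/6 counts against 22 MRL/lpr counts gave a ratio of 5.28 (exact 95% interval 1.79 to 21.1, counting error only). This interval leaves out the spread between libraries. When edgeR was run without a filter on low counts, miR-708-3p had a log2 fold change of 2.25 and was not past the threshold. Both arms of Mir708 had their higher values in MRL/lpr.

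**Figure D1:**
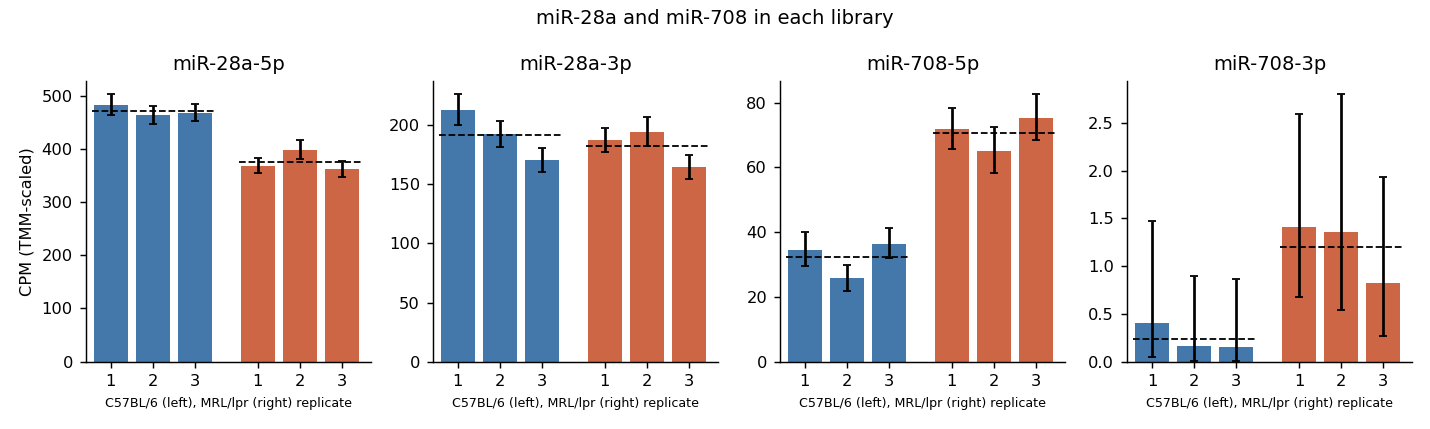
Each panel shows 1 mature miRNA, with bars for the TMM-scaled CPM in each of the 3 C57BL/6 and 3 MRL/lpr libraries (axis from 0), 95% exact Poisson intervals as error bars and the group mean as a dashed line. miR-708-5p stands at 25.7 to 36.5 CPM on the C57BL/6 side and at 65.02 to 75.3 CPM on the MRL/lpr side, miR-28a-5p is lower in MRL/lpr by a smaller step, and miR-28a-3p overlaps.

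mmu-miR-28a-5p, the dominant arm of Mir28a, stood at 482, 464 and 468 CPM in the C57BL/6 libraries, against 368, 398 and 362 CPM in the MRL/lpr libraries. The groups did not overlap, with every MRL/lpr library lower, where 28.8% of all tested miRNAs did not overlap in either direction. The means were 471 ± 9.75 and 376 ± 19.5 CPM (SD, n = 3; log2 fold change -0.33 ± 0.18 SE), and 242 of the 451 tested miRNAs had a larger log2 fold change in either direction. It was not past the threshold under any of 16 alternatives, with log2 fold changes from -0.40 to -0.18. The coefficient of variation over the C57BL/6 libraries was 2.07%, and C57BL/6 replicate 2 stood at 0.976 times the mean of the other C57BL/6 libraries.

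mmu-miR-28a-3p, the second arm of Mir28a, stood at 213, 192 and 170 CPM in the C57BL/6 libraries, against 188, 194 and 164 CPM in the MRL/lpr libraries, so the groups overlapped. The means were 192 ± 21.3 and 182 ± 15.7 CPM (SD, n = 3; log2 fold change -0.075 ± 0.20 SE). The sign of this difference was not stable: it was 0.075 with library-size scaling, a change that shifted the median over the tested miRNAs by 0.15, and 0.021 without MRL/lpr replicate 3.

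**Figure D2:**
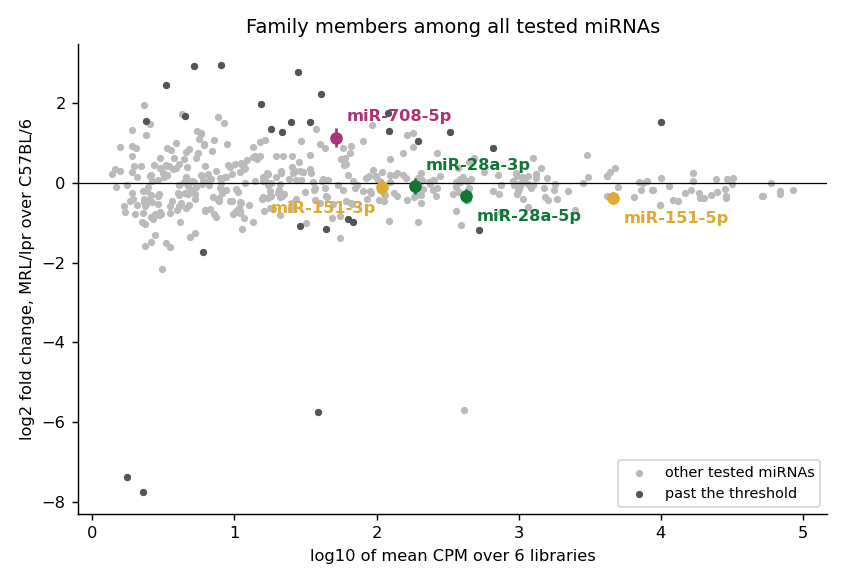
The log2 fold change (MRL/lpr over C57BL/6) of the 451 tested miRNAs is plotted against log10 of the mean CPM, with members in green and purple, relatives in yellow and SE as bars. miR-708-5p lies at 1.13, and miR-28a-5p, miR-28a-3p and both miR-151 arms lie between -0.39 and -0.075.

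The 5p arms share a seed, so their counts were also added. The sum was 503 ± 13.8 CPM in C57BL/6 kidneys, against 447 ± 14.4 CPM in MRL/lpr kidneys (SD, n = 3). That gap rests on TMM: with library-size scaling, an alternative chosen after seeing the data, the sum was 478 ± 12.5 and 470 ± 14.9 CPM, and the strains overlapped. The make-up of that sum differed. miR-708-5p was 6.69% of it in C57BL/6 replicate 1 (169 of 2526 counts, 95% Wilson interval 5.78 to 7.73%), 5.25% in replicate 2 (4.52 to 6.10%) and 7.23% in replicate 3 (6.39 to 8.17%). In MRL/lpr it was 16.3% in replicate 1 (509 of 3115 counts, 15.1 to 17.7%), 14.04% in replicate 2 (12.7 to 15.5%) and 17.2% in replicate 3 (15.8 to 18.7%). No interval of one strain reached those of the other, but these intervals cover counting error only and not the spread between libraries. The means were 6.39% ± 1.02 and 15.9% ± 1.65 (SD, n = 3), a difference of 9.48 percentage points, and miR-28a-5p stayed the larger part in all 6 libraries, at 4.80 to 18.04 times miR-708-5p. This share does not depend on the scaling between libraries, but ligation favours some miRNA ends over others, so it is a share of reads and not of molecules.

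The arms of Mir28a were read in a moderate ratio. The 5p arm took 69.4%, 70.7% and 73.3% of the hairpin's counts in the C57BL/6 libraries, against 66.2%, 67.2% and 68.7% in the MRL/lpr libraries, so the shares did not overlap, although the Wilson intervals of C57BL/6 replicate 1 (67.8 to 70.9%) and MRL/lpr replicate 3 (67.1 to 70.3%) did. With 1 CPM added to each arm, the log2 ratio of the 5p to the 3p arm averaged 1.30 ± 0.14 over C57BL/6 libraries, against 1.04 ± 0.083 over MRL/lpr libraries (SD, n = 3), a difference of -0.25. This was set beside the hairpins with both arms past the filter on low counts, with Mir708 added. Of these 106 hairpins, 50 had a larger difference in either direction, and the quartiles lay at -0.23 and 0.26. The 5p arm of Mir708 took 98.8%, 99.4% and 99.6% in the C57BL/6 libraries, against 98.1%, 98.0% and 98.9% in the MRL/lpr libraries. C57BL/6 replicate 1 lay below MRL/lpr replicate 3, so these overlapped. The difference in its log2 ratio was 0.30 with 1 CPM added, -0.059 with 0.5 CPM added and 0.79 with 5 CPM added, so its sign rests on the pseudocount.

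**Figure D3:**
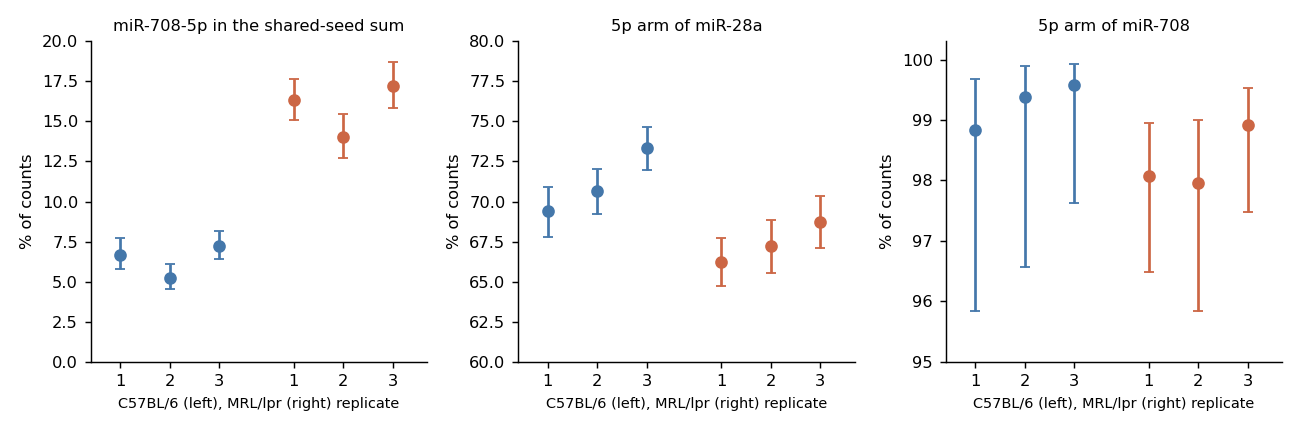
Points give a percentage of counts in each library with 95% Wilson intervals: miR-708-5p in the sum of both shared-seed arms (left), the 5p arm of miR-28a (middle) and the 5p arm of miR-708 (right). The middle and right axes do not start at 0. The left panel separates the strains, at 5.25 to 7.23% and 14.04 to 17.2%.

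Among relatives by sequence, miR-151 comes from a hairpin in an intron of Ptk2, the gene of focal adhesion kinase (chromosome 15, 73254815 to 73254882, minus strand). The sources used here do not say how reads matching both miR-28a-5p and a relative were counted. miR-151-5p stood at 5644, 4888 and 5194 CPM in the C57BL/6 libraries, against 3855, 4260 and 3926 CPM in the MRL/lpr libraries. The groups did not overlap, as for 28.8% of all tested miRNAs in either direction. The log2 fold change of miR-151-5p was -0.39 ± 0.15 SE (edgeR adjusted p = 0.153). miR-151-3p overlapped, at 114 ± 15.3 and 106 ± 10.8 CPM (SD, n = 3; log2 fold change -0.11, or 0.035 with library-size scaling; edgeR adjusted p = 0.786). miR-28c, whose hairpin lies in an intron of Samd12, was counted 1, 0 and 0 times in the C57BL/6 libraries, against 3, 2 and 1 times in the MRL/lpr libraries, so adding it to miR-28a-5p left the log2 fold change at -0.33. Of the 2 relatives tested, 0 were past the threshold with edgeR, DESeq2 or limma-voom, and 1, miR-151-5p, had an unadjusted edgeR p under 0.05, as did 94 of all 451. In 6 of 6 libraries the levels ran in the same order: miR-151-5p, miR-28a-5p, miR-28a-3p, miR-151-3p, miR-708-5p, miR-708-3p and miR-28c.

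The pattern over the 6 libraries was compared with that of the 277 other named miRNAs with a mean of at least 10 CPM, as the root mean square difference of log2(CPM + 1) after subtracting each miRNA's own mean. The nearest to miR-28a-5p was its relative miR-151-5p, at 0.054, where the median over all candidates was 0.31. The level of miR-151-5p was 10.5 to 11.7 times that of miR-28a-5p in every library. Next came miR-221-3p and miR-30c-2-3p, both at 0.072. The other arm of the same hairpin, miR-28a-3p, was further from miR-28a-5p, at 0.16. Nearest to miR-28a-3p were miR-128-3p (0.077), miR-301a-3p (0.083) and miR-196a-5p (0.10). miR-708-5p, which shares the seed of miR-28a-5p, lay 0.75 away from it, above the median of 0.65 for miR-708-5p. Its nearest patterns were miR-455-5p (0.14), miR-32-5p (0.18) and miR-92b-3p (0.23), all higher in MRL/lpr without overlap, as were 14% of tested miRNAs. miR-455-5p averaged 46.1 ± 8.79 CPM over C57BL/6 libraries, against 87.1 ± 11.2 CPM over MRL/lpr libraries (SD, n = 3), and like miR-708-5p it was lowest in C57BL/6 replicate 2 and highest in MRL/lpr replicate 3. These likenesses are descriptions that contain the strain difference and the shared libraries. How any reads matching both miR-28a-5p and miR-151-5p were counted was not given, and their part in this likeness was not tested.

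**Figure D4:**
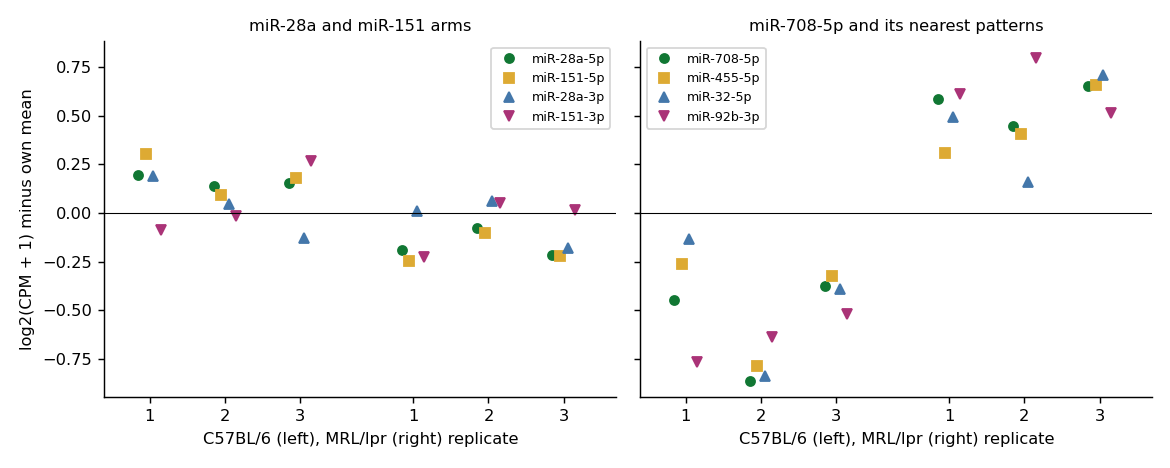
Points give log2(CPM + 1) minus each miRNA's own mean in the 6 libraries. On the left miR-28a-5p and miR-151-5p lie close together in every library; on the right miR-708-5p lies with miR-455-5p, miR-32-5p and miR-92b-3p, all below 0 in C57BL/6 and above 0 in MRL/lpr.

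Lists of miRNAs linked to known roles of the family were set beside it; strain results for several of their members were known when the lists were written. Of 13 miRNAs linked to the unfolded protein response, all tested, 2 were higher and 0 lower, where 4.21% of all 451 miRNAs were higher and 2% lower, with a median log2 fold change of -0.19, beside -0.027 for all miRNAs. The 2 were miR-211-5p, known in mouse as induced by the kinase PERK and close in sequence to the abundant miR-204 (14.4 ± 9.65 to 67.1 ± 23.03 CPM; SD, n = 3; edgeR adjusted p = 0.0358), and miR-125b-5p (467 ± 124 to 859 ± 37.4 CPM; edgeR adjusted p = 0.0451). Of 7 miRNAs with roles in B lymphocytes 6 were tested, and 1 was higher and 0 lower, beside the same 4.21% and 2% over all miRNAs, with a median log2 fold change of 0.30. That 1 was miR-155-5p, induced in activated lymphocytes (70.1 ± 28.1 to 173 ± 27.5 CPM; SD, n = 3; edgeR adjusted p = 0.0331). In C57BL/6 replicate 2, 10 of the 13 and 4 of the 6 had their highest C57BL/6 value. The share of all tested miRNAs that were highest there was not computed, so these counts have no background.

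**Figure D5:**
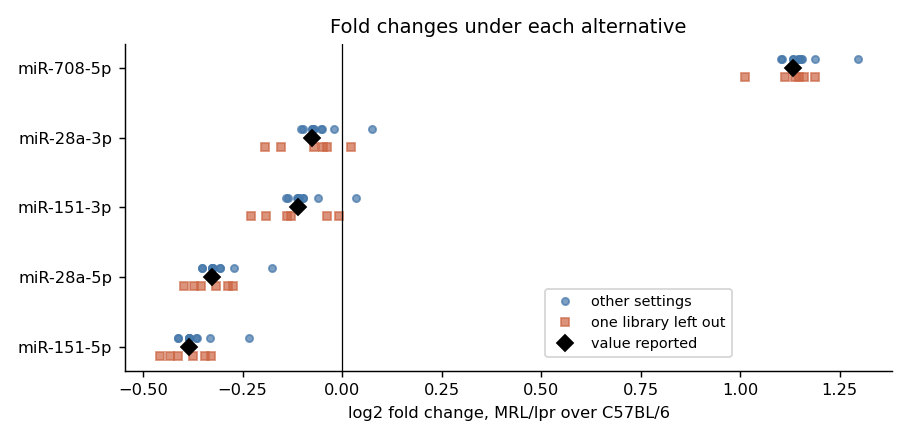
Log2 fold changes (MRL/lpr over C57BL/6) of the 3 tested members and both miR-151 arms are shown as reported (diamonds), with each library left out (squares) and under the other settings (circles). miR-708-5p stays between 1.01 and 1.30, while miR-28a-3p and miR-151-3p cross 0 in at least 1 setting.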

How the data were processed

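Small RNA was read from mouse kidney in 6 libraries. Total RNA was extracted with TRIzol and libraries were made by adapter ligation, PCR and gel size selection, per the labels' protocols; molecular identifiers are not mentioned, so counts may hold PCR copies and intervals cover counting error only. The deposited values are raw counts per mature miRNA, not normalized, in 1 table by the authors. Bowtie2, DESeq2 and GRCm38.p6 are named, with no role, per the submitters' processing notes; for the miRNA annotation, strand and multiply matching reads the setting was not given in the sources used here. Totals are 5259528 to 6773829 counts.

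Columns were matched to samples by group prefix (C taken as C57BL/6, LN taken as MRL/lpr), age and replicate number. In R 4.3.3, edgeR 4.0.16 kept 451 miRNAs (filterByExpr, minimum count 10, minimum total 15), scaled by TMM and tested group alone with a robust quasi-likelihood fit and Benjamini-Hochberg adjustment at 0.05. Library pairs within a strain differed by more than sampling noise (chi-square over its degrees of freedom 144 to 869). In simulated counts, 200 of the 451 miRNAs were changed, and 442 passed the filter. The test called 38.4% of 2-fold and 94.8% of 4-fold changes, and 1 unchanged miRNA. The changed share was far above the 6.21% called in the real counts, so these rates may overstate recovery there. Alternatives used limma 3.58.1 and DESeq2 1.42.0, other scalings and filters, a replicate block, summed miR-28 entries, other pseudocounts and each library left out. Members and lists were chosen with earlier results of these data known. Always named were members and relatives, the 3 nearest patterns of each tested member, and list members past the threshold. Sequences and mature positions come from RefSeq, hairpins and hosts from GENCODE M21. Figures used matplotlib 3.10.9.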

Additional observations from a re-analysis of the deposited data

How the results depend on the processing

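Over the 451 tested miRNAs, MRL/lpr kidneys were higher for 19 and lower for 9. These counts became 34 and 30 without a filter on low counts, 32 and 19 with DESeq2, 8 and 5 with the replicate number as a block, and the lower count became 5 without robust dispersion. With each library left out in turn, higher calls ran from 2 to 42 and lower calls from 3 to 15. The number of members called higher, 1, ran from 0 to 1 with a library left out and was 0 with the replicate block; it stayed 1 under the other 9 settings. Deviations of same-numbered libraries from their strain means correlated at -0.37, 0.034 and -0.37 over miRNAs. With 3 libraries per strain, these values cannot settle whether the replicate numbers pair the samples. No member was called lower and no relative passed under any setting. The log2 fold change of miR-28a-3p turned to 0.075 under library-size scaling. With each library left out in turn it ran from -0.19 to 0.021, above 0 only without MRL/lpr replicate 3. That of miR-151-3p turned to 0.035 under library-size scaling, which shifted the median of the tested miRNAs by 0.15. The difference in the summed CPM of both shared-seed arms went from -56.9 to -7.35 under that scaling, an alternative chosen after seeing the data. The arm difference of miR-708 moved from 0.30 to -0.059 and 0.79 with 0.5 and 5 CPM added, because its 3p arm had few counts. The share of miR-708-5p in the shared-seed sum moved by less than 1 SD in every run. Depth limits miR-708-3p, with 4 and 22 counts in C57BL/6 and MRL/lpr, and miR-28c.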
